A study of Sus scrofa with 6 samples.

Results

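The 8 genes of vasoactive receptors and cyclic GMP signalling were followed in abdominal aorta of miniature swine, with and without atherosclerotic lesions. The set was given as 10 gene symbols: EDNRA, EDNRB, AGTR1, NPR1, NPR3, PRKG1, PDE5A, PDE3A, ADRA1B and PTGIR. Of these, 8 were found as symbols in the gene table of 22861 genes, and all 8 passed the filter on low counts. NPR3 and PDE3A were not found by symbol and are not members here. A gene entry that carries only an identifier is named PDE3A in the reference table, and its values are given beside PDE5A as those of a non-member. The lesion group was swine labelled WMS FH (Wisconsin Miniature Swine with familial hypercholesterolaemia, an inherited excess of blood cholesterol) whose aorta carried lesions. The comparison group was swine labelled WMS normal, with lesion-free aorta. The RNA of each group's 11 animals went into 3 pools, called lesion replicates 1, 2 and 3 and lesion-free replicates 4, 5 and 6. Every lesion pool was WMS FH and every lesion-free pool WMS normal, so effects of lesion and of line cannot be told apart. Sex, age and diet are not given in the labels, nor which animals entered which pool. The p-values below reflect how far pools differ, not single animals.

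Vascular tone is set by receptors on smooth muscle and endothelium that answer circulating and local signals. Endothelin, angiotensin II and noradrenaline contract the artery through receptors that raise calcium in smooth muscle. Prostacyclin relaxes it through cyclic AMP, and nitric oxide and the natriuretic peptides relax it through cyclic GMP, which activates the kinase encoded by PRKG1 and is broken down by phosphodiesterases such as PDE5A.

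The smallest library was lesion replicate 1, with 4650176 counts, and the largest was lesion replicate 3, with 11442433. Levels are given as CPM, a gene's counts divided by its library's total in units of 1e+06, after scaling that total by trimmed M values. Lesion replicate 1 stood apart. Among tested genes whose mean in the other pools lay between 1 and 10 CPM, 29.2% had no count in lesion replicate 1, against 8.74% in lesion-free replicate 4, 11.9% in lesion-free replicate 5 and 1.45 to 1.90% in the remaining pools. It was also the lowest of the 6 pools in 37.2% of the 11673 genes tested, and lesion-free replicate 4 was the lowest in 20.4%. Taking 3 counts as the limit that a count of 0 allows, the floor was 0.577 CPM in lesion replicate 1 and 0.268 to 0.360 CPM elsewhere. These floors and the intervals of single pools cover counting error only. Of 14 smooth muscle markers named, 11 were matched, and MYH11, LMOD1 and MYOCD were not found. Of those matched, SMTNL2 was low, at 0.84 to 17.3 CPM, and the others were abundant in both groups. Of 11 tested smooth muscle markers, led by ACTA2, TAGLN and DES, 0 rose and 2 fell (CNN1 and DES), and their summed level was 42490 to 56680 CPM in lesion pools and 85340 to 99640 CPM in lesion-free pools. Both calls were lost when lesion replicate 1, lesion-free replicate 5 or lesion-free replicate 6 was left out. Of 8 tested macrophage markers, led by C1QC, C1QA and MPEG1, 6 rose and 0 fell. The summed level of the 10 matched was 1133 to 1961 CPM in lesion pools against 180.1 to 334 CPM in lesion-free pools. None of 10 tested endothelial markers, led by PECAM1, ESAM and ERG, was called. Their log2 folds (lesion minus lesion-free) were above 0 in 9 and below 0 in 1. That of PECAM1 was 0.77 and that of ESAM -1.02 (limma adjusted p = 0.234 and 0.149). The summed level of the 11 matched endothelial markers was 598 to 854 CPM in lesion pools and 667 to 691 CPM in lesion-free pools, and it does not show these opposite directions. In bulk tissue, fewer cells of a type and less RNA per cell cannot be told apart, and the part of cell makeup in the differences below was not tested.

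No member was called changed between lesion and lesion-free aorta. The test was limma with voom weights on log2 CPM of all 11673 genes, with Benjamini-Hochberg adjustment over all of them and a threshold of 0.05. Across all genes it called 0.968% higher and 0.0771% lower in lesion pools, or 1.05% in either direction. Of the 8 members, 0 were called higher and 0 lower. At an unadjusted p under 0.05 the count was 1 (PRKG1, higher), where 10.6% of all genes tested passed, 6.49% higher and 4.15% lower. Limma-trend, which uses no voom weights, also called 0. The log2 folds (lesion minus lesion-free) were above 0 in 4 members and below 0 in 4, with a median of -0.09, beside a median of -0.00 over all genes tested. The 3 lesion pools and the 3 lesion-free pools did not overlap in 3 members. PRKG1 was higher in all lesion pools, and NPR1 and ADRA1B were lower. The same held for 19.4% of the 11673 genes, with lesion pools higher in 10.5% and lower in 8.97%.

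**Figure D1:**
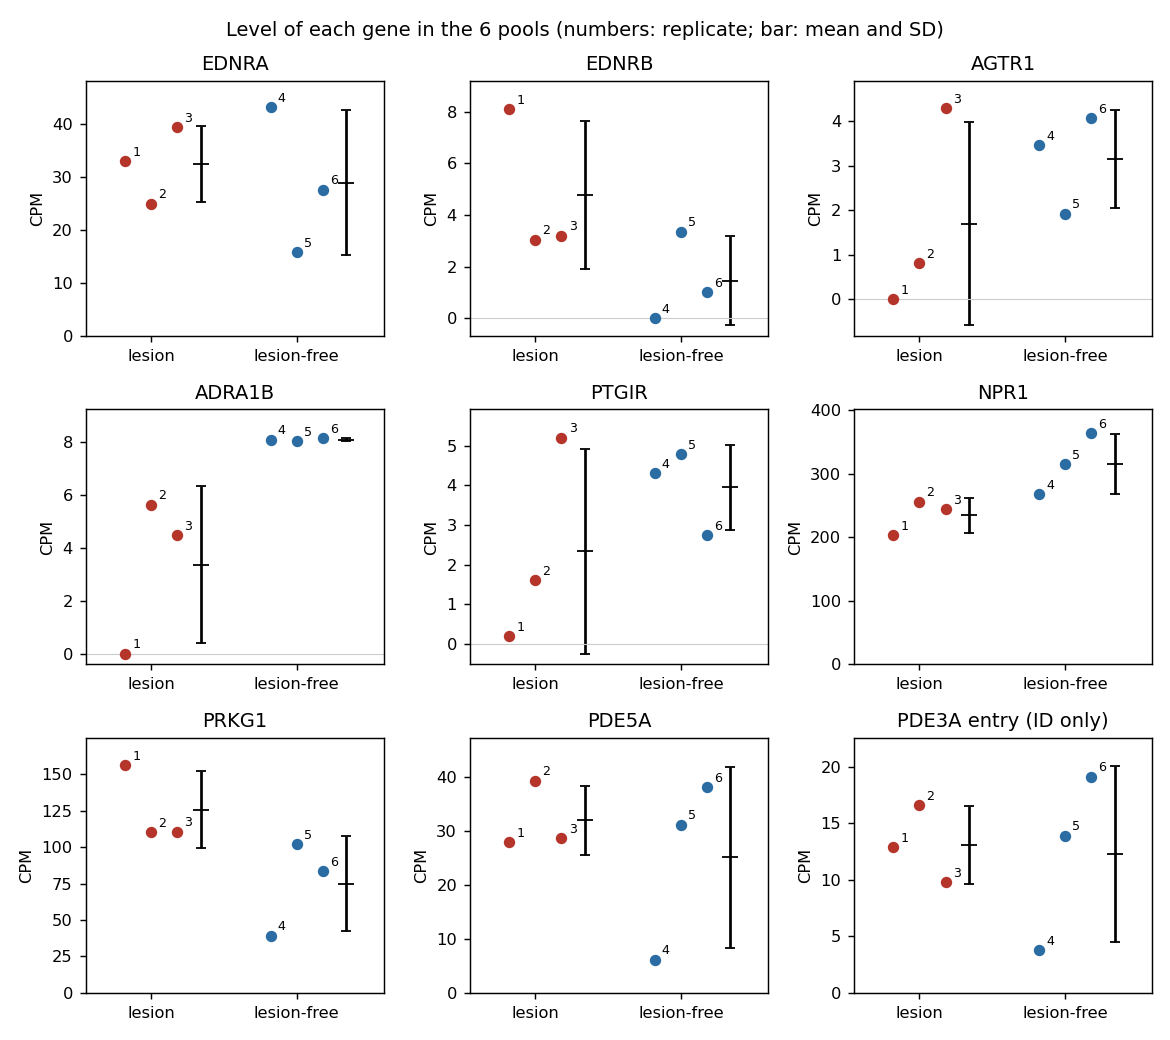
Level of 8 member genes and of the PDE3A entry in each pool, in CPM on a linear axis, with 1 point per pool numbered by replicate and a bar for the mean and SD of the 3 pools of a group. The points of the groups are apart for PRKG1, NPR1 and ADRA1B and overlap for the other genes. Lesion-free replicate 4 is the lowest point for EDNRB, PRKG1, PDE5A and the PDE3A entry, and lesion replicate 1 is the lowest for AGTR1, ADRA1B, PTGIR and NPR1.

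PRKG1, the cyclic GMP-dependent protein kinase of smooth muscle, was higher in each lesion pool than in any lesion-free pool, but the difference was not called. It stood at 156, 110.1 and 110.7 CPM in lesion replicates 1, 2 and 3 and at 39.2, 102 and 83.5 CPM in lesion-free replicates 4, 5 and 6. Lesion replicate 1 was the highest pool and lesion-free replicate 4 the lowest, while lesion replicates 2 and 3 lay close above lesion-free replicate 5. The means were 126 ± 26.4 CPM in the lesion group and 74.96 ± 32.4 CPM in the other (SD, n = 3 each). On the log2 scale lesion pools differed by 0.83 (SE 0.34, 95% interval 0.10 to 1.56, limma adjusted p = 0.402). Its highest leave-one-out value was 1.10, with lesion-free replicate 5 left out, and its lowest was 0.41, with lesion-free replicate 4 left out.

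NPR1, the receptor guanylyl cyclase that makes cyclic GMP on binding atrial and brain natriuretic peptide, was lower in each lesion pool than in any lesion-free pool, also without a call. Its levels were 203.5, 256 and 244.0 CPM in lesion replicates 1, 2 and 3 and 268.0, 315 and 363 CPM in lesion-free replicates 4, 5 and 6. With 1057 to 3571 counts per pool it was the member with the most counts, and its spread within a group was small, at 234 ± 27.5 CPM against 315 ± 47.6 CPM (SD, n = 3 each). Its log2 fold was -0.42 (SE 0.26, 95% interval -0.97 to 0.12, limma adjusted p = 0.585). The gap between the highest lesion pool and the lowest lesion-free pool was smaller than the SD of either group. Leaving out any 1 pool kept the log2 fold between -0.53 and -0.32.

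PDE5A, the phosphodiesterase that breaks down cyclic GMP in smooth muscle, was alike in 5 of the pools and low in 1. Its levels were 27.9, 39.3 and 28.7 CPM in lesion pools and 6.15, 31.2 and 38.2 CPM in lesion-free replicates 4, 5 and 6. The groups overlapped, and only lesion-free replicate 4 lay outside the range of the lesion pools on the low side. For PDE5A the log2 fold was 0.72 (SE 0.55, 95% interval -0.48 to 1.93, limma adjusted p = 0.679). Without lesion-free replicate 4 it was -0.11 (limma adjusted p = 0.932). The PDE3A entry, which encodes a phosphodiesterase of cyclic AMP that cyclic GMP inhibits, had the same low pool. It stood at 12.9, 16.6 and 9.78 CPM in lesion pools and at 3.78, 13.9 and 19.1 CPM in lesion-free pools. Its log2 fold was 0.35 (SE 0.565, limma adjusted p = 0.862), which became -0.36 when lesion-free replicate 4 was left out (limma adjusted p = 0.820).

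Ratios within a pool do not move with the scaling of that library. The log2 ratio of PDE5A to PRKG1 was -1.97 ± 0.50 in lesion pools and -1.83 ± 0.77 in lesion-free pools (SD, n = 3 each). The log2 ratio of the PDE3A entry to PDE5A was -1.30 ± 0.23 against -0.95 ± 0.24. With 3 against 3 pools the smallest two-sided exact permutation p is 0.1. The exact permutation p was 0.8 for PDE5A over PRKG1 and 0.2 for PDE3A over PDE5A, and 0.8 and 0.45 when adjusted over the 3 ratios computed. PRKG1, PDE5A and the PDE3A entry each had their lowest level in lesion-free replicate 4.

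**Figure D2:**
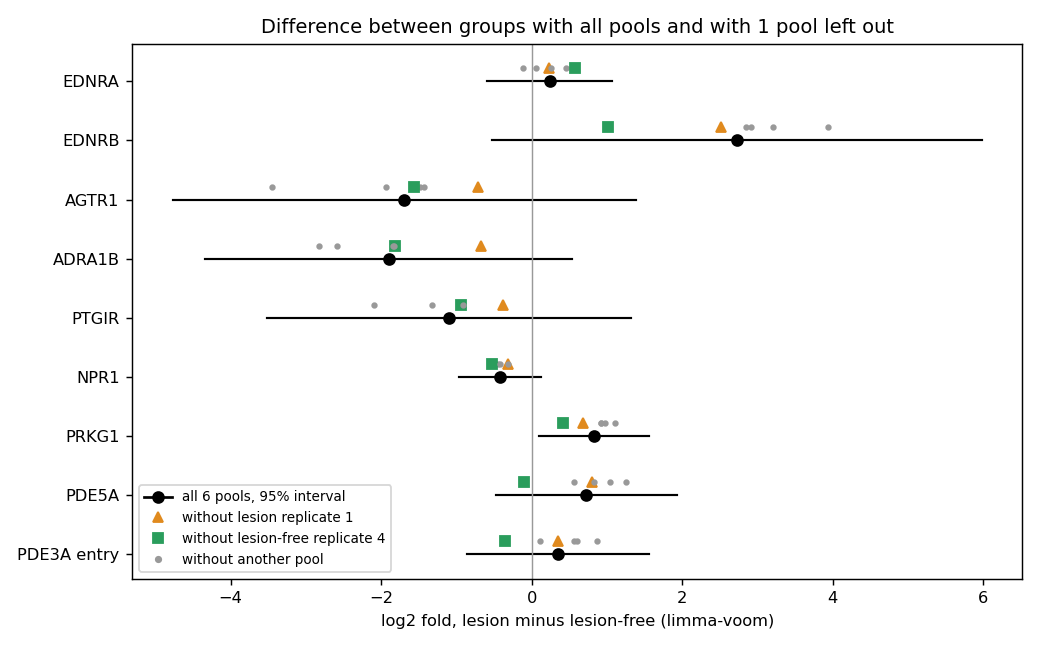
Log2 fold (lesion minus lesion-free) of each member and of the PDE3A entry, with the limma 95% interval as a line and the values with 1 pool left out as smaller marks above it. The interval of PRKG1 starts at 0.10 and all other intervals span 0. Each interval is that of a single gene, not adjusted for the number of genes tested, and PRKG1 was not called. The orange triangles (without lesion replicate 1) lie nearest 0 for AGTR1, ADRA1B and PTGIR, and the green squares (without lesion-free replicate 4) lie nearest 0 for EDNRB and PRKG1 and past it for PDE5A.

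EDNRA, the endothelin receptor of smooth muscle that mediates contraction, overlapped between the groups. It stood at 32.9, 24.9 and 39.3 CPM in lesion pools and at 43.1, 15.8 and 27.6 CPM in lesion-free pools, so that the highest and the lowest pool were both lesion-free. EDNRA had a log2 fold of 0.24 (SE 0.39, 95% interval -0.59 to 1.06, limma adjusted p = 0.863), and it was -0.11 without lesion-free replicate 5. The interval reaches up to 2.09-fold higher in lesion pools.

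EDNRB, the endothelin receptor that endothelium uses to release nitric oxide and that also clears endothelin, was low in every pool. It was near the detection limit in lesion-free replicates 4 and 6. It had 42, 34 and 35 counts in lesion pools and 0, 28 and 10 counts in lesion-free replicates 4, 5 and 6. On the scaled level this was 8.08, 3.04 and 3.20 CPM against 0, 3.36 and 1.02 CPM, and the 0 in lesion-free replicate 4 allows up to 0.324 CPM. Lesion replicate 1 was the highest pool, while lesion replicates 2 and 3 lay within the counting interval of lesion-free replicate 5 (exact Poisson 95% interval 2.23 to 4.85 CPM). The log2 fold of 2.73 (SE 1.52, 95% interval -0.53 to 5.98, limma adjusted p = 0.552) depends on the count of 0.5 that voom adds. Leaving out lesion-free replicate 4 gave 1.01, and leaving out lesion-free replicate 5 gave 3.94.

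The ratio of EDNRB to EDNRA varied most among the lesion-free pools. On the log2 scale it was -2.01, -3.02 and -3.60 in lesion replicates 1, 2 and 3 and -9.64, -2.22 and -4.69 in lesion-free replicates 4, 5 and 6. Lesion-free replicate 5 lay among the lesion pools, and the value of lesion-free replicate 4 rests on an EDNRB count of 0 with 0.5 added. The difference of the means was 2.64 (exact permutation p = 0.3, adjusted p = 0.45). With 5 added to each count it was 1.46, and it was 0.58 when lesion-free replicate 4 was left out and 4.29 when lesion-free replicate 5 was left out. No order of the levels of both receptors follows, because counts were not divided by transcript length.

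AGTR1, the type 1 angiotensin II receptor through which angiotensin contracts the artery, was low in every pool. It had 0, 9 and 47 counts in lesion replicates 1, 2 and 3 and 32, 16 and 40 in lesion-free replicates 4, 5 and 6, or 0, 0.804 and 4.295 CPM against 3.45, 1.92 and 4.07 CPM. The lesion pools held both the lowest and the highest value. At the lesion-free mean of 3.15 ± 1.11 CPM (SD, n = 3), a library of the size of lesion replicate 1 would hold 16.3 counts, where 0 were found. For AGTR1 the log2 fold was -1.69 (SE 1.44, 95% interval -4.77 to 1.38, limma adjusted p = 0.708). It was -0.72 without lesion replicate 1 and -3.45 without lesion replicate 3.

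ADRA1B, an alpha-1 adrenergic receptor through which noradrenaline contracts smooth muscle, was lower in each lesion pool than in any lesion-free pool, without a call. It stood at 0, 5.63 and 4.48 CPM in lesion replicates 1, 2 and 3 and at 8.10, 8.04 and 8.14 CPM in lesion-free pools. The lesion-free pools lay closer together than their counting intervals are wide, and the exact Poisson 95% interval of lesion-free replicate 4 ran from 6.37 to 10.1 CPM on 75 counts. The interval of lesion replicate 2, from 4.33 to 7.2 CPM, overlapped it, and that of lesion replicate 3, from 3.31 to 5.92 CPM, did not. The lesion pools ranged from no count to 63 counts. At the lesion-free mean, lesion replicate 1 would hold 42.0 counts, where 0 were found. The difference was -1.90 on the log2 scale (SE 1.14, 95% interval -4.34 to 0.54, limma adjusted p = 0.584). Without lesion replicate 1 it was -0.68 (limma adjusted p = 0.727), and without lesion replicate 2 or lesion replicate 3 it was -2.82 and -2.59.

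PTGIR, the prostacyclin receptor, which relaxes smooth muscle and restrains platelets, overlapped between the groups. It had 1, 18 and 57 counts in lesion replicates 1, 2 and 3 and 40, 40 and 27 in lesion-free pools, or 0.193, 1.61 and 5.21 CPM against 4.32, 4.80 and 2.75 CPM. As for AGTR1, lesion replicate 1 was the lowest pool and lesion replicate 3 the highest. PTGIR had a log2 fold of -1.10 (SE 1.13, 95% interval -3.52 to 1.32, limma adjusted p = 0.764). It was -0.38 without lesion replicate 1 and -2.10 without lesion replicate 3.

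**Figure D3:**
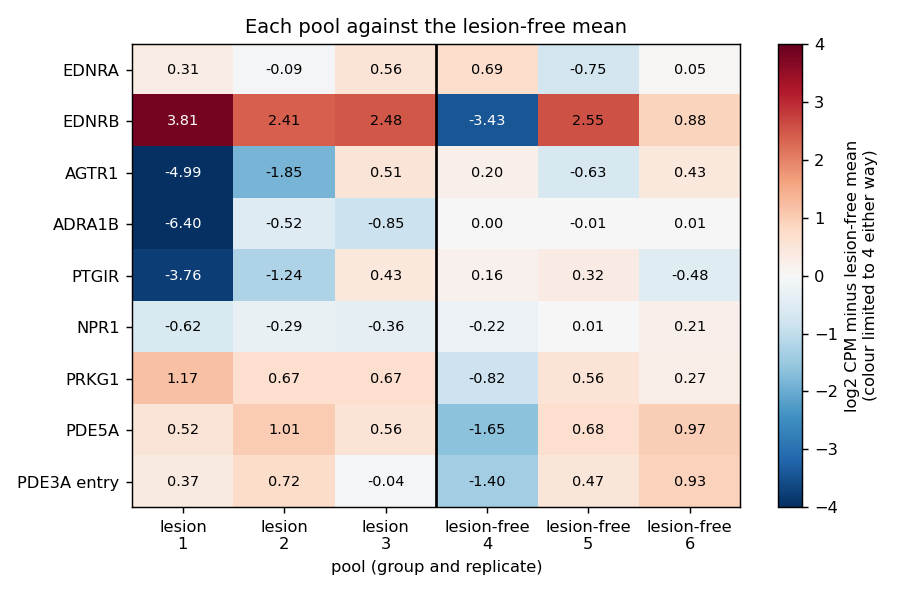
Log2 CPM of each member and of the PDE3A entry in each pool minus the mean of the 3 lesion-free pools, with red for higher and blue for lower. The values of AGTR1, ADRA1B and PTGIR in lesion replicate 1 are -4.99, -6.40 and -3.76, and those of EDNRB, PRKG1, PDE5A and the PDE3A entry in lesion-free replicate 4 are -3.43, -0.82, -1.65 and -1.40.

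The lowest values of most members lay in the pair of libraries that were also most often the lowest over all genes tested. Lesion replicate 1 was the lowest pool for 4 of 8 members (AGTR1, ADRA1B, PTGIR and NPR1), and lesion-free replicate 4 for 3 (EDNRB, PRKG1 and PDE5A). Over all genes tested these pools were the lowest in 37.2% and 20.4%. Relative to the lesion-free mean, PRKG1 in lesion replicate 1 was at 1.17 on the log2 scale, in the same library in which AGTR1 was at -4.99 and ADRA1B at -6.40. The latter values rest on counts of 0, to which 0.5 was added before taking logs. The part of library depth and of dropout of low counts in these values was not tested.

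Each member was also set against the smooth muscle markers, of which 2 of 11 were called lower. The median log2 CPM of the 11 tested smooth muscle markers was 11.50, 11.92 and 12.04 in lesion replicates 1, 2 and 3 and 11.94, 12.05 and 12.29 in lesion-free replicates 4, 5 and 6, so this median overlapped between the groups. It fell on CNN1 in every lesion pool but on ACTG2, SMTN and CALD1 in lesion-free replicates 4, 5 and 6. Of the single markers, 9 had log2 folds below 0 and 2 above, with a median of -0.76. Their summed level, given above, did not overlap. Differences on this scale therefore do not take the fall of the markers fully into account. Against the median of each pool, NPR1 was at -3.95 ± 0.14 in lesion pools and -3.80 ± 0.06 in lesion-free pools (SD, n = 3 each), a difference of -0.15. With the mean of the markers in place of the median the difference was 0.03. PRKG1 was at -4.87 ± 0.57 against -5.97 ± 0.64, a difference of 1.11, and its groups did not overlap on this scale. The difference was -2.32 for ADRA1B, -1.84 for AGTR1, -1.25 for PTGIR, 3.17 for EDNRB, 0.97 for PDE5A and 0.53 for EDNRA. Counts of 0 enter the values of ADRA1B and AGTR1 (lesion replicate 1) and of EDNRB (lesion-free replicate 4). Without lesion replicate 1 the difference was -0.57 for ADRA1B, -0.56 for AGTR1 and -0.29 for PTGIR. Without lesion-free replicate 4 it was 1.54 for EDNRB, 0.23 for PDE5A and 0.78 for PRKG1. The exact permutation p was 0.1, the smallest that 3 against 3 pools allow, for PRKG1 and ADRA1B, 0.2 for NPR1 and 0.3 to 0.4 for the other members. Adjusted over the 8 members, each was 0.4.

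The other genes of these pathways were taken from 12 lists of 164 symbols, of which 140 were matched and 105 tested. Of these 105, 1 rose (ARRB1) and 0 fell, and the median log2 fold was 0.04. The groups did not overlap in 22 of them, or 21.0%, beside 19.4% of all genes tested. At an unadjusted p under 0.05 there were 16, or 15.2%, beside 10.6%. Lesion-free replicate 4 was the lowest pool in 30 of the 105 and lesion replicate 1 in 35.

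**Figure D4:**
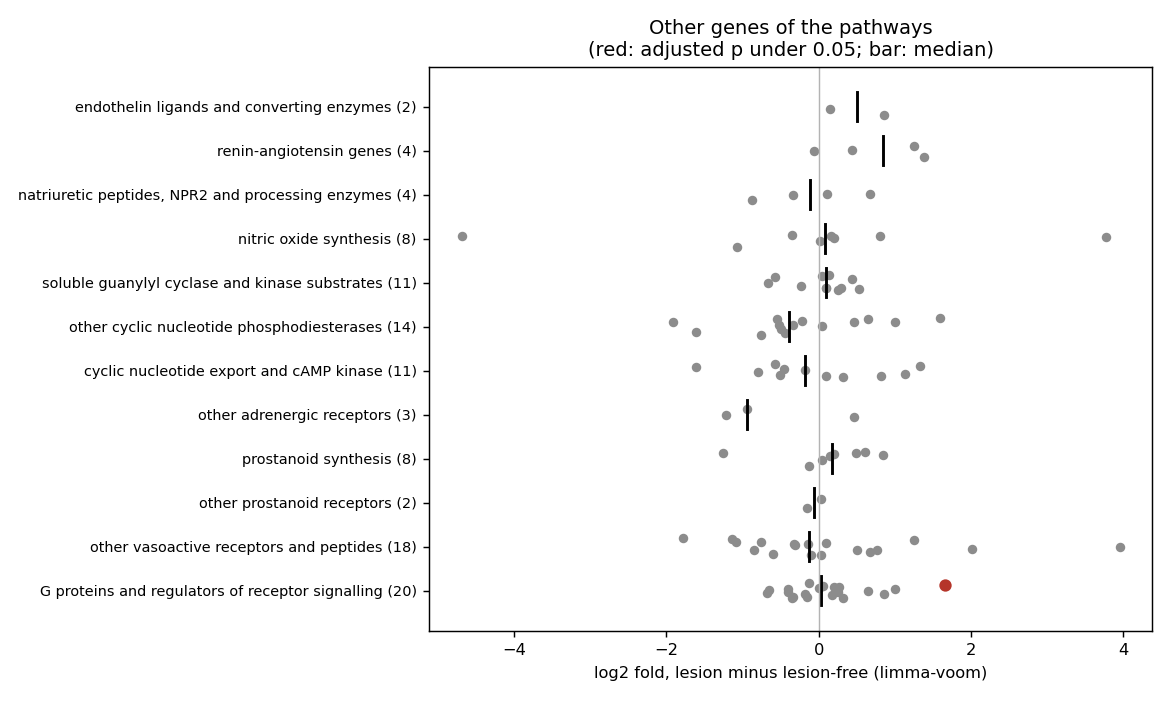
Log2 fold (lesion minus lesion-free) of the tested genes of 12 pathway lists, 1 point per gene, with the number tested in brackets and a bar at each list's median. The single red point is ARRB1, at 1.66, and the grey points are genes that were not called.

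ARRB1, the scaffold protein beta-arrestin 1 that binds activated receptors and stops their G protein signal, was the gene called. It stood at 46.0, 47.6 and 40.7 CPM in lesion pools and at 14.5, 15.6 and 12.5 CPM in lesion-free pools. The groups were far apart and each was tight, at 44.8 ± 3.65 against 14.2 ± 1.56 CPM (SD, n = 3 each). Its log2 fold was 1.66 (SE 0.34, limma adjusted p = 0.0245), a 3.16-fold rise. The call was lost without lesion replicate 2 (limma adjusted p = 0.0619), lesion-free replicate 5 (0.104) or lesion-free replicate 6 (0.161), with log2 folds of 1.57 to 1.73. ARRB2, which encodes beta-arrestin 2 and is named here as its close relative, was at 34.5 ± 3.44 against 16.9 ± 0.63 CPM and was not called (limma adjusted p = 0.236). Macrophages and other leukocytes also express arrestins, and the macrophage markers given above rose in the same pools, and their part in this rise was not tested. Of the 20 tested G protein and receptor regulator genes, ARRB1 was the only one called, and the median log2 fold was 0.03.

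Among ligands and the enzymes that make them, none was called. EDN1, the endothelin-1 precursor, was at 4.62, 6.79 and 22.02 CPM in lesion pools and at 3.78, 7.20 and 6.61 CPM in lesion-free pools, so that only lesion replicate 3 stood out. Its log2 fold was 0.86 (limma adjusted p = 0.679) and that of ECE1, an endothelin-converting enzyme, was 0.15. Without lesion replicate 3 the log2 fold of EDN1 was 0.13. These were the 2 tested genes of that list. Of 4 tested renin-angiotensin genes, 0 were called and the median log2 fold was 0.84. ACE, the enzyme that makes angiotensin II, was at 47.2, 18.9 and 46.9 CPM in lesion pools and at 16.4, 9.95 and 12.5 CPM in lesion-free pools. Every lesion pool was above every lesion-free pool, and lesion replicate 2 was nearest to them. The log2 fold of ACE was 1.38 (SE 0.45, limma adjusted p = 0.238), and without lesion replicate 2 it was 1.88 and was called (limma adjusted p = 0.0250). LNPEP, a membrane aminopeptidase that binds angiotensin IV, and ATP6AP2, an accessory protein of the vacuolar proton pump, had log2 folds of 1.25 and 0.43 (limma adjusted p = 0.421 and 0.627). That of LNPEP was 0.43 with lesion-free replicate 4 left out. AGTR2, the type 2 angiotensin II receptor, had no count in any pool.

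In the natriuretic peptide and nitric oxide branches upstream of cyclic GMP, 0 of 4 and 0 of 8 tested genes were called, with median log2 folds of -0.12 and 0.09. The peptide genes NPPA and NPPB had no count. NPR2, the receptor guanylyl cyclase for C-type natriuretic peptide, was at 58.1, 63.2 and 66.0 CPM in lesion pools and 78.9, 77.4 and 82.5 CPM in lesion-free pools. As for NPR1, its groups did not overlap, with lesion pools lower, and its log2 fold was -0.34 (limma adjusted p = 0.666). CORIN, which processes natriuretic peptides, and MME, which degrades them, had log2 folds of 0.68 and -0.88 (limma adjusted p = 0.866 and 0.887). Without lesion replicate 1, in which it had no count, MME was at -0.0498. NOS3, the endothelial nitric oxide synthase, was at 55.8, 166 and 102 CPM in lesion pools and 63.7, 71.4 and 43.2 CPM in lesion-free pools, with a log2 fold of 0.80 (limma adjusted p = 0.465). NOS1, the neuronal synthase, had 0, 1 and 0 counts in lesion replicates 1, 2 and 3 and 22, 18 and 18 in lesion-free replicates 4, 5 and 6. NOS1 was not called (limma adjusted p = 0.319), except when no filter on low counts was used (limma adjusted p = 0.0495). It passed the filter only through its lesion-free pools and was not tested when any of these was left out. Its difference is therefore partly set by the filter. NOS2, the inducible synthase, was at 4.04, 2.23 and 1.28 CPM in lesion pools and at 0, 0 and 1.02 CPM in lesion-free pools. Every lesion pool was above every lesion-free pool, and the log2 fold of 3.78 was not called (limma adjusted p = 0.491).

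Of 11 tested genes of soluble guanylyl cyclase and of kinase substrates, 0 were called and the median log2 fold was 0.10. GUCY1A1 and GUCY1B1, the subunits of the nitric oxide receptor, are named for that role and had log2 folds of 0.29 and 0.09 (limma adjusted p = 0.848 and 0.941). KCNMB1, the subunit of the calcium-activated potassium channel found in smooth muscle, was at 77.8, 75.7 and 75.9 CPM in lesion pools and 106, 125 and 137 CPM in lesion-free pools. Its groups did not overlap, and the log2 fold of -0.67 was not called (limma adjusted p = 0.338). PLN, the calcium pump regulator phospholamban, and RGS2, a brake on G protein signals, had log2 folds of -0.58 and 0.44 (limma adjusted p = 0.632 and 0.640). Among the other phosphodiesterases, 0 of 14 were called and the median log2 fold was -0.39, with PDE8B at -0.76, PDE4B at 0.64 and PDE6D at -0.52 (limma adjusted p = 0.428, 0.561 and 0.624).

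Genes of the cyclic AMP branch were likewise not called, at 0 of 11 with a median log2 fold of -0.18. PRKACA, a catalytic subunit of the cyclic AMP-dependent kinase, was at 242.5, 243 and 387.5 CPM in lesion pools and 639, 449 and 414 CPM in lesion-free pools, with a log2 fold of -0.79 (limma adjusted p = 0.308). ADCY5, an adenylyl cyclase, had a log2 fold of -0.57 (limma adjusted p = 0.451), and PRKAR2A, a regulatory subunit, one of 0.82 (limma adjusted p = 0.523). Of 8 tested prostanoid synthesis genes 0 were called and the median was 0.18. PTGIS, the prostacyclin synthase and named as the source of the ligand of PTGIR, was at 665, 822 and 745 CPM in lesion pools and 560, 595 and 802 CPM in lesion-free pools (limma adjusted p = 0.824). PTGS1, PTGES and PTGES2, a cyclooxygenase and 2 prostaglandin E synthases, had log2 folds of 0.62, 0.84 and -1.25 (limma adjusted p = 0.613, 0.624 and 0.733). The value of PTGES2, which had no count in lesion replicate 1, was -0.00752 without that pool and -2.33 without lesion replicate 3. The prostaglandin E receptors PTGER3 and PTGER2, the 2 tested prostanoid receptors other than PTGIR, had log2 folds of -0.16 and 0.03.

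The other adrenergic receptors were measured in the same pools as ADRA1B, and 0 of 3 were called. ADRA2C, an alpha-2 receptor, was at 45.4, 89.6 and 100.5 CPM in lesion pools and at 159, 194 and 184.5 CPM in lesion-free pools. The highest lesion pool lay well below the lowest lesion-free pool, and the log2 fold was -1.21 (SE 0.31, limma adjusted p = 0.0882). It was called with sample quality weights (limma adjusted p = 0.0237). ADRA1D, an alpha-1 receptor of large arteries, was at 3.465, 12.4 and 13.8 CPM against 23.4, 14.5 and 22.6 CPM, with a log2 fold of -0.94 (limma adjusted p = 0.523). Its groups did not overlap either. ADRA2A was at 2.85 CPM or less in every pool. Lesion replicate 1 was the lowest pool for ADRA1B, ADRA1D and ADRA2C.

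Among 18 other vasoactive receptors and peptides, 0 were called and the median log2 fold was -0.12. The groups did not overlap in 5 of them, 3 with lesion pools lower and 2 with lesion pools higher, beside 8.97% and 10.5% of all genes tested. The 3 lower genes had the smallest p of the list. RAMP1, the partner protein of the receptor for calcitonin gene-related peptide, was at 123, 209.0 and 271 CPM against 641, 333 and 348 CPM (log2 fold -1.13, limma adjusted p = 0.186). VIPR2, a receptor for vasoactive intestinal peptide, had a log2 fold of -1.09 and HRH1, a histamine receptor, one of -0.75 (limma adjusted p = 0.293 and 0.416). The 2 higher genes, named after their values were seen, were F2RL1, a protease-activated receptor, and RAMP2, the partner protein of the adrenomedullin receptor. F2RL1 was at 13.7, 4.38 and 3.56 CPM against 0.971, 0 and 0.407 CPM (log2 fold 3.95, limma adjusted p = 0.440), and RAMP2 was at 69.1, 51.9 and 78.8 CPM against 46.3, 45.5 and 32.9 CPM (log2 fold 0.67, limma adjusted p = 0.440). F2RL1 passed the filter on low counts only through its lesion pools. Its lack of overlap follows from that filter and is no evidence of a difference.

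The isoform table added little to these values. For 7 of the 8 members it held 1 isoform, with counts equal to those of the gene. AGTR1 had 3 isoforms with 93, 36 and 15 counts over all pools, of which 1 passed the filter. None of the 8 tested isoforms of members was called, where 0.450% of 12666 isoforms tested were. With fewer than 2 tested isoforms per member, no test of isoform use could be made.

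Genes with the most similar pattern over the 6 pools were sought for PRKG1, the member with the smallest p, and for NPR1, the member with the highest mean CPM. Among 8886 candidate genes, those nearest to PRKG1 on log2 CPM were APC, HPS3, TLR7, PDE4B and RNF144B, with Pearson correlations of 0.992 to 0.996. Those nearest to NPR1 were GALNT2, GJA5, SLC24A3, DUSP3 and RPS6KC1, at 0.980 to 0.989. All points share their libraries and their depth. With 6 pools, 320 genes exceeded a correlation of 0.9 with PRKG1 and 126 with NPR1, so these names are a description only.

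Markers of further cell types give the setting of these values. Called genes were 0 of 9 for adventitial fibroblasts (led by DCN, COL14A1 and PI16), 0 of 6 for pericytes (RGS5, CSPG4 and NOTCH3), 0 of 4 for T and NK cells (NKG7, CD2 and CD4) and 0 of 2 for B and plasma cells (JCHAIN and CD79B). They were 0 of 2 for mast cells (MS4A2, KIT and HDC), 0 of 2 for platelets and red blood cells (HBB, ITGA2B and ALAS2) and 0 of 2 for adipocytes (LIPE and PLIN1, with LEP at 0). They were 0 of 5 for nerve (NCAM1 and NGFR), 0 of 4 for lymphatic endothelium (CCL21, LYVE1 and PDPN) and 1 of 1 for skeletal muscle (ACTA1, lower, with MYH1 and MYL1 not tested). MYH1 went the other way, with 0, 48 and 37 counts in lesion replicates 1, 2 and 3 and 0, 0 and 8 in lesion-free replicates 4, 5 and 6. MYL1 had 6 counts in lesion-free replicate 4 and none elsewhere. The skeletal muscle median is therefore the value of ACTA1 alone. The median log2 folds in this order were -0.34, -0.02, 3.07, 0.82, 0.26, -0.50, -0.84, -1.88, 0.59 and -1.69. Medians were 2.83 for macrophage, 0.38 for endothelial and -0.76 for smooth muscle markers.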

How the data were processed

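The authors deposited tables of genes and of isoforms with raw estimated read counts in 1 column per pool, as whole numbers with commas, which were removed. The submitters' processing notes list the tools RSEM 1.3.0 and edgeR but give neither a role. For genome build and aligner: not given in the sources used here. Because of the commas the columns could not be recorded as plain counts, so limma 3.58.1 in R 4.3.3 was used in place of a count model, with voom weights and robust empirical Bayes.

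Genes were tested with at least 1.00 CPM (10 counts in a library of median size) in 3 pools and 15 counts in all. Library scaling used trimmed M values (TMM) over tested genes, trimming 30% of M and 5% of A. The fit was tested on simulated negative binomial counts with the same dispersion for every gene and no added dropout in any library. That test does not show how the fit performs on pools that differ as these do. Pools of 1 group differed by more than counting noise (chi-square per degree of freedom 20.7 to 86.9), and each was counted as 1 replicate.

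The members, the 12 pathway lists, the 13 marker lists and the tests were chosen with earlier results of these data known. Members were matched by symbol alone and list genes also by identifier or older symbol. All members were named, with called genes of each pathway list, or the 3 with the smallest p where none was called, and the 3 most abundant genes of each marker list, except a few genes that are not reported here. ARRB2, GUCY1A1, GUCY1B1 and PTGIS were added for their roles.

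Alternatives were 3 other scalings, no filter and a stricter one (10 counts' CPM in all pools), sample quality weights, limma-trend with a prior count of 2 or 0.1 CPM added, no robust step, and leaving out each pool.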

Additional observations from a re-analysis of the deposited data

How the results depend on the processing

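No member was called under any of the alternatives run, 15 for EDNRA, NPR1, PRKG1 and PDE5A and 14 for EDNRB, AGTR1, ADRA1B and PTGIR, which the stricter filter did not test. Signs turned for EDNRA without lesion-free replicate 5 (-0.11) and PDE5A without lesion-free replicate 4 (-0.11). Over the pools left out, the log2 folds ranged from -0.11 to 0.58 for EDNRA, 1.01 to 3.94 for EDNRB, -3.45 to -0.72 for AGTR1, -0.53 to -0.32 for NPR1, 0.41 to 1.10 for PRKG1, -0.11 to 1.25 for PDE5A, -2.82 to -0.68 for ADRA1B and -2.10 to -0.38 for PTGIR. Plain library totals moved the median log2 fold of all genes from -0.00 to 0.16.

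Among genes that were not called, the sign turned with sample quality weights for the PDE3A entry (-0.0763), CORIN (-0.18), PTGER2 (-0.38) and GUCY1A1 (-0.0465), with 0.1 CPM added for ADRA2A (-0.00423), and with plain totals for PTGER3 (0.0382). Without lesion replicate 1 it turned for PTGER3 (0.12), PTGER2 (-0.17) and GUCY1B1 (-0.0554). Without lesion-free replicate 4 it turned for the PDE3A entry (-0.36), ECE1 (-0.11), CORIN (-0.51), PTGER2 (-0.36) and GUCY1A1 (-0.00148), without lesion-free replicate 5 for ADRA2A (-0.35) and PTGER3 (0.0662), and without lesion-free replicate 6 for GUCY1B1 (-0.0126). The difference in the log2 ratio of PDE5A to PRKG1 was -0.14, and 0.12 without lesion replicate 1 or 0.215 without lesion-free replicate 6, within a leave-one-out range of -0.55 to 0.215. The highest leave-one-out values were 0.865 for the PDE3A entry, 0.321 for ECE1, 1.48 for CORIN, 1.41 for ADRA2A, 0.255 for PTGER2, 0.709 for GUCY1A1 and 0.22 for GUCY1B1, and the lowest for PTGER3 was -0.47. The difference of NPR1 relative to smooth muscle was -0.15 with the median of the markers and 0.0276 with the mean of the markers. In each case the cause was not tested.

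Over all genes, 171 were higher and 17 lower with no filter, and 213 and 40 with sample quality weights. Leaving out 1 pool gave 54 to 143 higher and 3 to 33 lower. Called genes then numbered 0 to 1 among G protein regulators and renin-angiotensin genes, 0 to 2 among smooth muscle markers (lower) and 0 to 1 for skeletal muscle (lower). No paired analysis was possible because the groups share no replicate number. Few counts lie behind AGTR1, PTGIR, EDNRB and ADRA1B, with 0, 1, 42 and 0 in lesion replicate 1 and 32, 40, 0 and 75 in lesion-free replicate 4.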
